A study of Mus musculus with 30 samples.

Results

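The renin-angiotensin and endothelin systems of the mouse heart were described through 9 genes: the precursor Agt, the enzyme Ace, the receptors Agtr1a and Agtr2, the endothelin precursors Edn1 and Edn3, the enzyme Ece1, and the receptors Ednra and Ednrb. They were chosen by name, as the rows of the count table whose Ensembl identifier carries these symbols in the GENCODE annotation, and all 9 were found among 55487 rows. Of these, 8 passed the filter on low counts and entered the tests. Agtr2 did not, with 2 counts in total over 30 libraries.

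Both systems make short peptides that narrow blood vessels. In the first, the liver protein angiotensinogen (Agt) is cut by renin and then by angiotensin-converting enzyme (Ace) to angiotensin II, which acts on the type 1 receptor (Agtr1a) and on the mainly fetal type 2 receptor (Agtr2). In the second, big endothelins made from Edn1 and Edn3 are cut by endothelin-converting enzyme (Ece1) and act on the receptors Ednra, found on muscle cells, and Ednrb, found largely on endothelium. In the heart Agtr1a and Ednra, which couple to Gq, are known for driving growth of muscle cells, and drugs that block these systems lower blood pressure.

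RNA was counted in 30 hearts, taken 8 weeks after sham surgery or after pressure load by transverse aortic constriction (TAC), in which the aortic arch is narrowed with a clip. In the floxed cohort, mice labelled CPT1a floxed (FF) or cardiac specific CPT1a knockout (KO) had sham surgery (FF_sham and KO_sham) or TAC (FF_TAC and KO_TAC), with 4 hearts in each group. In the AAV9 cohort, C57Bl/6 mice received PBS or the adeno-associated viral vector AAV9.Cpt1a, written AAV9.cTNTN.Cpt1a in the design text, with sham surgery (PBS_sham, 3 hearts, and AAV_sham, 4 hearts) or TAC (PBS_TAC, 3 hearts, and AAV_TAC, 4 hearts). Cpt1a encodes the enzyme that commits long-chain fatty acids to mitochondrial oxidation, and the study asked what more or less of it does under pressure load. The Cre line, the age and the sex of the mice are not given in the sources used here. Clips of 0.016 or 0.018 inch were used, without a record of which mouse had which. The titles of the KO_TAC samples read "TAC Sham", whereas their genotype and treatment labels give knockout and TAC, which were followed.

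Library totals ran from 14839758 to 22070373 counts. Levels are given as CPM, a gene's share of its library's counts put on a common scale. Cpt1a, counted over the whole gene and all cells, was at 11.1 to 19.6 CPM in KO_TAC against 16.2 to 48.8 in FF_TAC, and at 20.3 to 46.2 CPM in KO_sham against 37.8 to 52.6 in FF_sham. It was at 44.8 to 62.6 CPM in AAV_TAC against 40.2 to 61.5 in PBS_TAC, and at 56.3 to 88.3 CPM in AAV_sham against 37.4 to 68.0 in PBS_sham. All 4 of these pairs of ranges overlapped. Single libraries went against their label: the library labelled KO_sham 2 had 46.2 CPM, within the FF_sham range, and the other 3 KO_sham libraries 20.3 to 23.6. In the floxed TAC group, 20.3 and 16.2 CPM were found in those labelled FF_TAC 2 and 3, against 48.8 and 33.9 CPM in FF_TAC 1 and 4. Their labels were kept, and these 3 libraries are meant by their labels wherever they are named. Which exons the floxed allele removes is not given in the sources used here, so counts over the whole gene do not check the deletion directly. Libraries stood apart in 3 ways. Haemoglobin transcripts summed to between 1.40 and 51.1 CPM in 7 libraries of the floxed cohort (FF_TAC 2 and 3, KO_sham 2, KO_TAC 1 to 4) and to between 294 and 943 CPM in the other 23. The library KO_TAC 1 had 8470 CPM of 4 summed atrial markers, the highest of the 30, and 603 CPM of 4 summed lung epithelium markers, of which Scgb1a1 gave 601. PBS_sham 3 had 21096 CPM of 5 summed cardiomyocyte markers against 42034 to 58900 elsewhere, and 2079 CPM of 7 summed mural markers (pericyte and smooth muscle) against 331 to 695.

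The promoters of Edn3, Ace and Edn1 are shown. Edn3 and Ace were called with higher levels after TAC, and Edn1 is the endothelin whose level differed with the haemoglobin split described further on. Each window runs from 250 bases before to 50 bases after the RefSeq start on build GRCm38.p6, 5′ to 3′ on the gene's strand, which is + for these genes. Capitals mark matches to 4 motifs searched on both strands: the AP-1 motif TGANTCA, the MCAT motif CATTCC of muscle promoters, the TATA box TATAAA and the cyclic AMP motif TGACGTCA.
Edn3 (chr2:174760369-174760668): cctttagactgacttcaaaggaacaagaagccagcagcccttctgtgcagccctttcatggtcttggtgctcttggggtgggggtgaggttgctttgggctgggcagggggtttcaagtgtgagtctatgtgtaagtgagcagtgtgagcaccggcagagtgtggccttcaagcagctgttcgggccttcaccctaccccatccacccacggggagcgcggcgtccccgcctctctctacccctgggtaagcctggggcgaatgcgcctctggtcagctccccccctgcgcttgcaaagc
Ace (chr11:105967698-105967997): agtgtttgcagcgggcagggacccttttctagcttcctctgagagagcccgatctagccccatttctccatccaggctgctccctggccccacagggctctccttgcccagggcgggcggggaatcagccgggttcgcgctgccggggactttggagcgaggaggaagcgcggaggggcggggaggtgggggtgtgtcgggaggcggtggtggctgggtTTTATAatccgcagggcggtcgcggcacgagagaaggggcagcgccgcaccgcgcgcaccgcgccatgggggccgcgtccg
Edn1 (chr13:42301226-42301525): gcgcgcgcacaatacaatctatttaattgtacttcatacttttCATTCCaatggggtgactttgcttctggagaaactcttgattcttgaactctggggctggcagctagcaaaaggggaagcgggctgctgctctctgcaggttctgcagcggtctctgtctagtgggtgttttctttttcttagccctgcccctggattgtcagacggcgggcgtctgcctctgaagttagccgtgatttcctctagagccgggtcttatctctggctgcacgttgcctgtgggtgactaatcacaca
The Edn3 window held none of the 4 motifs. The Ace window held TTTATA at -31, the TATA box read on the opposite strand, and the Edn1 window held CATTCC at -207. Of 32851 RefSeq promoter windows of this length, 7.81% held the AP-1 motif, 14.7% MCAT, 13.6% the TATA box and 1.79% the cyclic AMP motif. None of these matches is thus rare for a window as a whole. How often a motif stands at a given position was not counted. Among the windows of the other members, TATAAA stood at -30 of Agt. A match describes letters and is no evidence of a bound factor. Windows were found for 8 of the 9 members, all but Agtr1a.

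Per kilobase of exon, which allows genes to be compared, Ece1 had the highest mean level over the 30 libraries (19.2 CPM per kb), followed by Ace (16.8) and Agtr1a (13.1). The receptors Ednrb (6.59 CPM per kb) and Ednra (5.40) came next. The peptide precursors had 3.64 CPM per kb for Edn1, 2.12 for Agt and 1.95 for Edn3, and the receptor Agtr2 was last. In KO_TAC the mean of Edn1 (8.15 CPM per kb) lay above those of the receptors Agtr1a (7.82) and Ednra (5.11). The order was not the same in every group. Ace stood above Ece1 per kb in 0 of 15 sham libraries of the 4 sham groups and in 9 of 15 TAC libraries, namely in 3 of 4 in FF_TAC, 3 of 4 in KO_TAC, 2 of 3 in PBS_TAC and 1 of 4 in AAV_TAC. Edn3 stood above Edn1 per kb in 6 libraries of the 30, all after TAC. Ednrb stood above Ednra in 22 of the 30, with the exceptions confined to FF_sham, FF_TAC, KO_sham and AAV_sham.

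**Figure D1:**
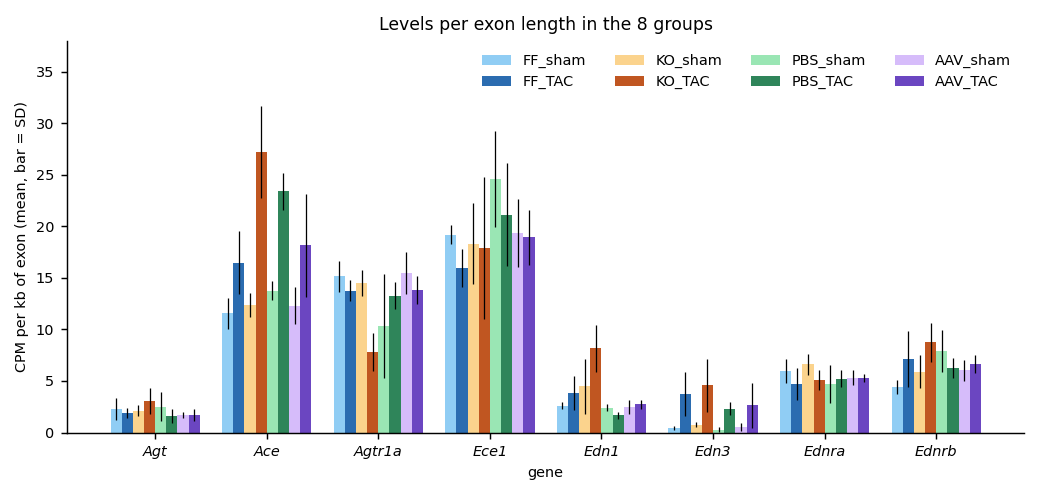
Mean level of 8 genes per kilobase of exon in the 8 groups (bars, CPM per kb) with the SD over the 3 or 4 libraries of each group. Ace reaches 27.2 CPM per kb in KO_TAC against 12.4 in KO_sham, and Agtr1a 7.82 against 14.5.

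Agtr2 (ENSMUSG00000068122, chrX:21484544-21489164 on the + strand, build GRCm38 as for all members) was at 0 counts in 28 libraries, and 2 KO_sham libraries held 1 count each. A count of 0 allows up to 3 counts, which are worth 0.136 to 0.202 CPM in these libraries and cover counting error only. The type 2 receptor was therefore not detectable at this depth.

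In the knockout hearts, TAC was accompanied by a rise of Ace and Edn3 and a fall of Agtr1a, and the other 5 tested members did not pass the test. These 3 of 8 calls stand beside 25.8% of all tested genes called in the same comparison, so the share of members is not far from the background. Between the TAC groups, Ace was higher and Agtr1a lower in knockout than in floxed hearts. That is 2 of 8 members, beside 14.3% of all genes. In the floxed controls no member was called after TAC by edgeR's quasi-likelihood test, which called 0% of all genes there. At an unadjusted p under 0.05 that comparison held 3 of 8 members (Ace, Edn3 and Ednrb), beside 1723 of 15596 genes tested. DESeq2 called 1 member there and limma voom 0, and their shares of all genes are not given here. In the AAV9 cohort, Ace and Edn3 rose with TAC averaged over the PBS and vector groups, 2 of 8 members beside 0.927% of all genes. Without the 3 libraries whose Cpt1a level went against their label, a fit chosen after seeing the data, KO_TAC against KO_sham held 5 called members and KO_TAC against FF_TAC 4. Ace (1.19 and 0.87), Agtr1a (-0.96 and -0.91) and Edn3 (2.46 in the first) kept their calls, and Edn1 (1.35 and 1.74) and Ednrb (0.77 and 0.81) were called in both. All KO_TAC and no other libraries of that fit were low in haemoglobin, so the group and that split cannot be told apart in it. The interaction of knockout and TAC then held 2 called members, Agtr1a at -0.90 (adjusted p 0.0370) and Edn1. The share of all genes called in that fit is not given here, so its counts of members have no background beside them. In FF_TAC against FF_sham, where no member was called in it either, Edn3 was at 2.36 and Ace at 0.34. Unless another test is named, adjusted p-values are those of the edgeR test with Benjamini-Hochberg adjustment over all genes, and a gene is called below 0.05. The labels do not say whether libraries of a group are separate animals beyond naming separate hearts, so p-values measure the spread between these libraries.

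**Figure D2:**
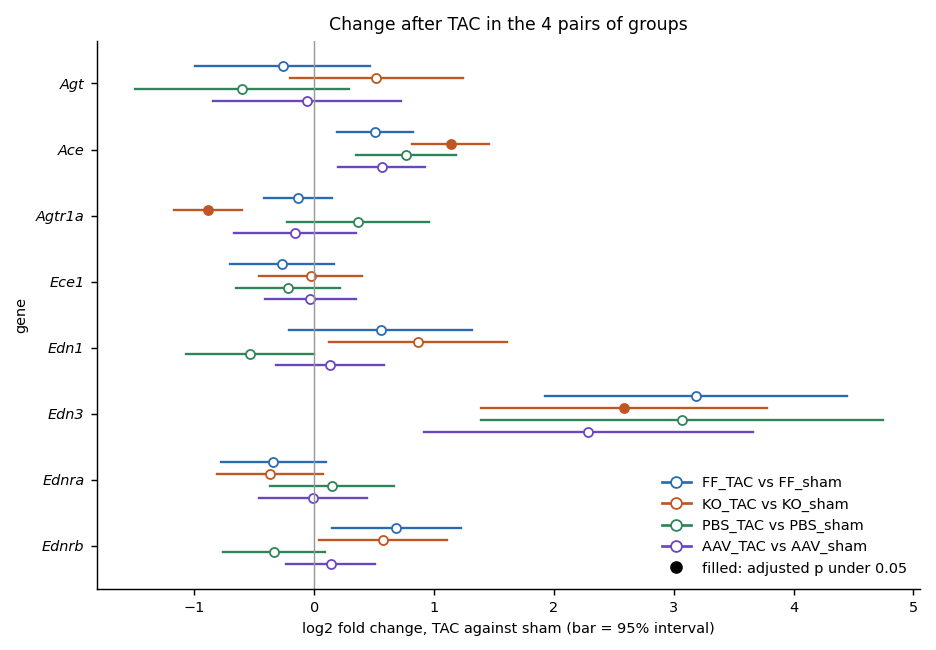
Log2 fold change of 8 genes after TAC in the 4 pairs of TAC and sham groups, with 95% intervals of the edgeR fit and filled points where the adjusted p is under 0.05. Edn3 and Ace lie to the right of 0 in all 4 pairs, and Agtr1a lies far to the left in the knockout pair alone, at -0.89.

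Angiotensinogen transcripts were scarce in every group. Agt (ENSMUSG00000031980) lies at chr8:124556534-124569706 on the - strand. Its means ran from 3.09 CPM in PBS_TAC to 5.77 CPM in KO_TAC, and single libraries from 1.87 to 8.41 CPM. The neighbouring group means overlapped in their libraries throughout the order. Its log2 fold change was 0.52 (SE 0.34, adjusted p 0.265) in KO_TAC against KO_sham and -0.26 (SE 0.34, adjusted p 0.771) in FF_TAC against FF_sham. Of 4 hepatocyte markers, Alb and Serpina1a were at 0 in both knockout groups, and the 4 together reached at most 3.67 CPM in any library. Of the 4, Ttr rose in KO_TAC against KO_sham, where the sum was 0.738 to 3.67 CPM against 0.0522 to 0.729 CPM, and its part in the Agt level was not tested.

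Ace (ENSMUSG00000020681, chr11:105967945-105989964, + strand), the enzyme that makes angiotensin II, measured 51.6, 62.5, 70.8 and 60.03 CPM in the FF_sham libraries and 64.3, 90.2, 103 and 91.3 CPM in FF_TAC. It measured 61.0, 73.3, 60.7 and 66.5 CPM in KO_sham and 113, 139, 163 and 161 CPM in KO_TAC. All KO_TAC hearts thus exceeded every other heart of the floxed cohort, while FF_TAC 1 lay within the sham range. The rise in knockout hearts came to 1.14 on the log2 scale, or 2.20-fold (SE 0.15, 95% interval 0.82 to 1.46, adjusted p 0.000528). KO_TAC exceeded FF_TAC by 0.73 (SE 0.15, 95% interval 0.41 to 1.04, adjusted p 0.00567). In the floxed controls the difference was 0.51 (SE 0.15, 95% interval 0.19 to 0.83), with an adjusted p of 0.364. The interaction, which asks whether the TAC effect differs between genotypes, was 0.63 (95% interval 0.18 to 1.08). It was not called in the main edgeR fit (adjusted p 0.214). Of the alternative fits 1 called it, and 0 of the 16 fits without 1 library did.

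In the AAV9 cohort, Ace measured 69.5, 78.5 and 70.2 CPM in PBS_sham and 128, 113 and 131 CPM in PBS_TAC. The PBS groups did not overlap. It measured 68.2, 76.9, 57.0 and 57.9 CPM in AAV_sham and 93.9, 134, 75.4 and 80.5 CPM in AAV_TAC, where 1 library fell within the sham range. The log2 fold change was 0.77 (SE 0.19, adjusted p 0.144) after PBS and 0.56 (SE 0.17, adjusted p 0.369) after the vector. Of the alternative fits, 1 called the PBS difference and 0 the vector difference. The PBS difference was called in 0 of 6 fits without 1 library. Averaged over both pairs, Ace rose by 0.66 (SE 0.13, 95% interval 0.39 to 0.94, adjusted p 0.0327). This call was lost in 8 of 14 fits that left out 1 library, with adjusted p up to 0.0975, and with the atrial marker Myl7 as a covariate (0.60, adjusted p 0.405).

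Ace is also abundant in lung vessels, and the lung epithelium markers summed to 0.357 to 603 CPM in KO_TAC against 0.121 to 0.322 in KO_sham, where Sftpc and Sftpa1 were at 0. The 603 CPM was in KO_TAC 1, where the single marker Scgb1a1 gave 601. KO_TAC 1 had the lowest Ace of its group, and without it the log2 fold change of Ace was 1.23. The part of lung tissue in the level of Ace was not tested. Endothelium is a known source of Ace. Of 7 endothelial markers, 4 fell in KO_TAC against KO_sham (Kdr, Cdh5, Tek and Tie1) and none rose. Their sum ran from 626 to 860 CPM in KO_TAC and 746 to 1084 in KO_sham. Of 5 fibroblast markers, 1 rose (Mfap4), with sums of 251 to 442 CPM in KO_TAC and 194 to 283 in KO_sham. In bulk tissue, fewer cells of a type and less RNA per cell cannot be told apart, and the part of either list in the rise of Ace was not tested. Exons of Ace share 295 bases with the antisense gene Gm11651, and the strand setting of the counting is not given in the sources used here, so reads of the pair could be mixed.

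Agtr1a (ENSMUSG00000049115, chr13:30336441-30382867, + strand), the main angiotensin II receptor of the rodent heart, measured 45.0, 38.5, 38.7 and 46.7 CPM in FF_sham and 42.3, 36.3, 36.3 and 38.6 CPM in FF_TAC. It measured 41.9, 35.0, 42.2 and 42.1 CPM in KO_sham and 19.5, 19.9, 18.4 and 29.3 CPM in KO_TAC. The 4 KO_TAC hearts were below the other 12 hearts of the cohort without overlap. Agtr1a fell by 0.89 on the log2 scale in KO_TAC against KO_sham (SE 0.14, 95% interval -1.17 to -0.60, adjusted p 0.00108), which leaves 0.541 of the sham level. Against FF_TAC it was lower by a log2 fold change of -0.82 (SE 0.14, 95% interval -1.10 to -0.53, adjusted p 0.00176). In the floxed controls the TAC difference was -0.14 (SE 0.13, adjusted p 0.694). The interaction was -0.75 (SE 0.19, 95% interval -1.15 to -0.35) with an adjusted p of 0.118, and so was not called by edgeR. DESeq2 gave the interaction an adjusted p of 0.0171 and limma voom with sample weights 0.00391, and edgeR without KO_TAC 4 gave -0.93 with 0.0147. The other 15 of 16 fits without 1 library did not call it. Of 7 mural markers, which include pericyte genes, 2 fell in KO_TAC against KO_sham (Abcc9 and Kcnj8) and none rose. Their sum was 331 to 564 CPM in KO_TAC and 530 to 627 CPM in KO_sham, with none at 0, and their part in the fall of Agtr1a was not tested.

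Agtr1a was not called in the AAV9 cohort, where its mean was 28.7 CPM in PBS_sham and 37.0 in PBS_TAC, and 43.1 CPM in AAV_sham and 38.5 in AAV_TAC. Its levels were 41.7, 30.8 and 13.8 CPM in PBS_sham and 41.1, 35.1 and 34.7 CPM in PBS_TAC. They were 42.3, 37.7, 41.5 and 51.0 CPM in AAV_sham and 33.5, 37.6, 40.7 and 42.3 CPM in AAV_TAC, and the ranges of TAC and sham overlapped in both pairs. The lowest value, 13.8 CPM, belonged to PBS_sham 3, the library with the low cardiomyocyte sum and the highest mural sum (2079 CPM). The part of either in that value was not tested. AAV_sham against PBS_sham gave 0.59 (SE 0.26, adjusted p 0.229), which became 0.25 (adjusted p 0.517) without PBS_sham 3 and 0.97 (adjusted p 0.0286) without PBS_sham 1. With PBS_sham 1 left out, Ednrb was called as well, so that the count of members in this comparison went from 0 to 2.

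**Figure D3:**
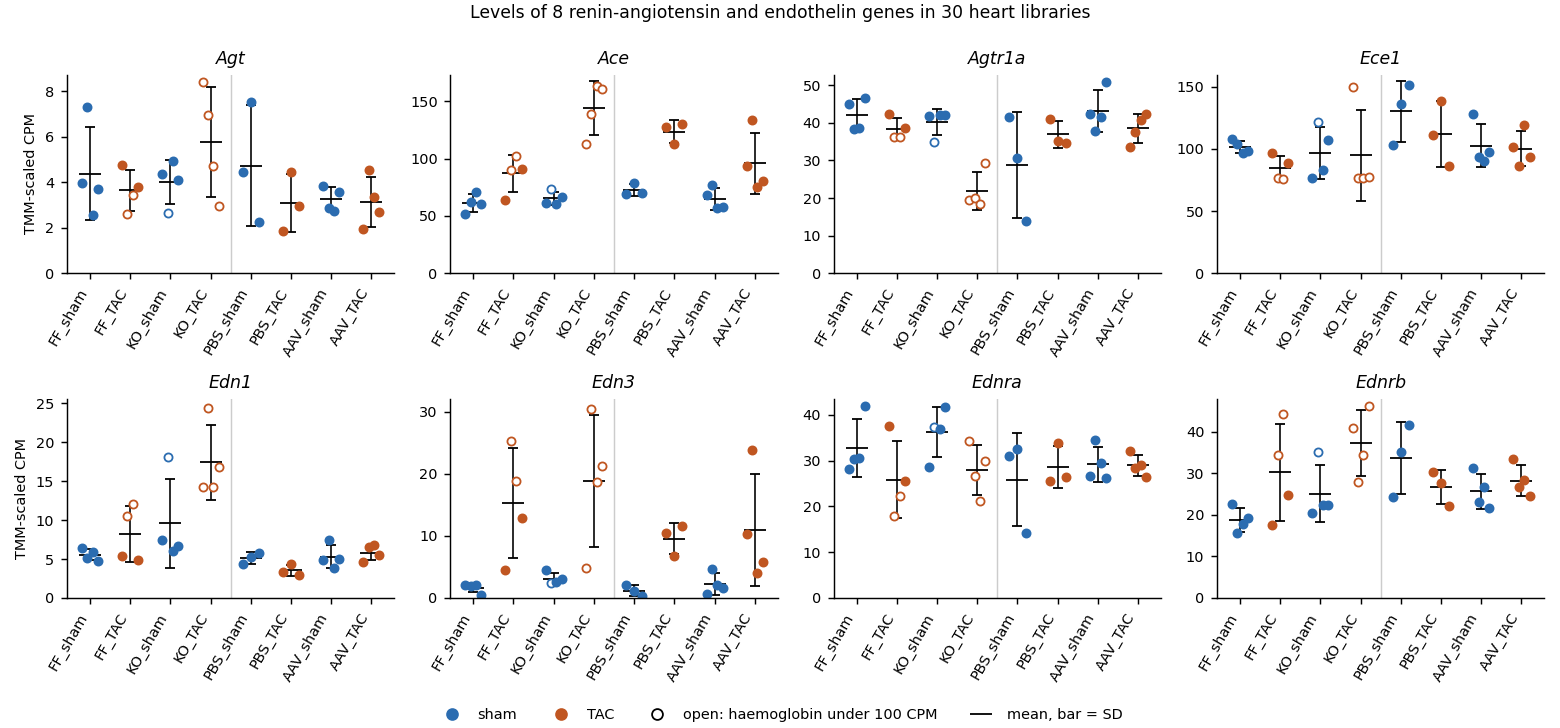
TMM-scaled CPM of 8 genes in each of the 30 libraries (points) with the mean and SD of each group, floxed cohort on the left of the grey line and AAV9 cohort on the right, each scaled on its own. Ace is high and Agtr1a low in all 4 KO_TAC libraries, and Edn3 is under 5 CPM in every sham library.

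Ece1 (ENSMUSG00000057530, chr4:137862237-137965229, + strand) releases the active endothelins. Its group means ran from 84.5 CPM in FF_TAC to 130 CPM in PBS_sham, and the libraries of groups that neighbour each other in this order overlapped. FF_TAC libraries measured 96.6, 76.9, 75.8 and 88.8 CPM, all below the 108, 104, 96.9 and 98.7 CPM of FF_sham, although the log2 fold change of -0.27 (SE 0.20) had an adjusted p of 0.617. In KO_TAC, 3 libraries lay between 76.3 and 77.2 CPM and KO_TAC 1 was at 150 CPM. Against KO_sham the log2 fold change was -0.03 (SE 0.20, adjusted p 0.924), and without KO_TAC 1 it was -0.35. KO_TAC 1 is also the library with the most atrial and lung epithelium transcripts, and their part in its Ece1 level was not tested.

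Edn1 (ENSMUSG00000021367, chr13:42301476-42307990, + strand), the endothelin of the vessel wall, was highest in KO_TAC. It measured 6.47, 5.12, 5.91 and 4.80 CPM in FF_sham, and 5.42, 10.5, 12.1 and 4.86 CPM in FF_TAC. It measured 7.50, 18.2, 6.03 and 6.68 CPM in KO_sham, and 14.3, 24.4, 14.2 and 16.8 CPM in KO_TAC. FF_TAC fell into a low and a high pair, and KO_sham held 1 high library. KO_TAC did not overlap FF_TAC, and the log2 fold change was 1.09 (SE 0.35, 95% interval 0.34 to 1.84), with an adjusted p of 0.0507 that just missed the threshold. DESeq2 gave 0.0175 for the same difference and limma voom 0.00465. KO_TAC against KO_sham gave 0.86 (SE 0.35, adjusted p 0.0778), and without KO_sham 2 it gave 1.36 with an adjusted p of 0.00866. The other 7 of 8 fits without 1 library did not call it. DESeq2 called this difference at 0.88 (adjusted p 0.0458) and limma voom at 1.11 (adjusted p 0.00150). Between the sham groups the log2 fold change of Edn1, knockout against floxed, was 0.78 (SE 0.36, adjusted p 0.973), and it was 0.27 without KO_sham 2.

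In the AAV9 cohort Edn1 stayed between 2.91 and 7.47 CPM in all 14 libraries. PBS_TAC measured 3.33, 4.38 and 2.91 CPM, and AAV_TAC measured 4.59, 6.50, 6.75 and 5.52 CPM. These groups did not overlap, and the log2 fold change of 0.72 (SE 0.23) had an adjusted p of 0.999988 over all genes. The share of all genes without overlap between these groups is not given here. PBS_TAC against PBS_sham gave -0.54 (SE 0.25, adjusted p 0.269), with PBS_sham at 4.33, 5.26 and 5.78 CPM. Edn1 shares 35 exon bases with the antisense gene Gm47118.

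Edn3 (ENSMUSG00000027524, chr2:174760619-174784042, + strand), an endothelin that acts mainly through Ednrb and is known from neural crest development, had the largest fold change of the 8 tested members in each of the 4 TAC pairs. It measured 2.01, 1.96, 2.16 and 0.554 CPM in FF_sham and 4.49, 25.2, 18.8 and 12.9 CPM in FF_TAC. It measured 4.47, 2.37, 2.55 and 3.08 CPM in KO_sham and 4.87, 30.5, 18.8 and 21.3 CPM in KO_TAC. Each TAC library exceeded each sham library of its genotype, though FF_TAC 1 and KO_TAC 1 were far below the rest of their groups. In knockout hearts Edn3 rose by 2.58 on the log2 scale, or 6.00-fold (SE 0.56, 95% interval 1.39 to 3.78, adjusted p 0.00648). In the floxed controls the log2 fold change was 3.19 (SE 0.59, 95% interval 1.92 to 4.45), with an unadjusted p of 8.16e-05 and an adjusted p of 0.364, so it was not called by edgeR. DESeq2 called it with an adjusted p of 1.08e-05, and so did edgeR when FF_TAC 1 was left out (3.48, adjusted p 0.0341). The other 7 of 8 fits without 1 library did not call it, with adjusted p up to 0.900 and values down to 2.84. KO_TAC against FF_TAC gave 0.29 (SE 0.51, 95% interval -0.81 to 1.39, adjusted p 0.730).

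The AAV9 cohort gave the same direction for Edn3. It measured 2.14, 1.05 and 0.319 CPM in PBS_sham and 10.4, 6.74 and 11.5 CPM in PBS_TAC, which did not overlap. It measured 0.655, 4.65, 2.16 and 1.57 CPM in AAV_sham and 10.3, 23.8, 3.97 and 5.76 CPM in AAV_TAC, where AAV_TAC 3 lay below AAV_sham 2. The log2 fold change was 3.07 (SE 0.78, adjusted p 0.144) after PBS and 2.29 (SE 0.64, adjusted p 0.306) after the vector, and DESeq2 called both (adjusted p 0.00512 and 0.0343). With PBS_sham 1 left out, edgeR called the PBS pair too, at 3.87 with an adjusted p of 0.0309. The other 5 of 6 fits without 1 library did not call it, with adjusted p up to 0.384. Their lowest value, 2.58, came without PBS_sham 3, the library with 0.319 CPM. Averaged over both pairs Edn3 rose by 2.68 (SE 0.50, 95% interval 1.59 to 3.76, adjusted p 0.0309). That call was lost in 8 of 14 fits without 1 library, with adjusted p up to 0.0863 and log2 values from 2.32 to 3.08, and with Myl7 as a covariate (2.28, adjusted p 0.401).

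Neither endothelin receptor was called by edgeR with all libraries of a cohort. Ednra (ENSMUSG00000031616) lies at chr8:77663031-77724464 and Ednrb (ENSMUSG00000022122) at chr14:103814625-103844402, both on the - strand. Ednra group means ran from 25.8 CPM in PBS_sham to 36.2 CPM in KO_sham, and TAC and sham libraries overlapped in all 4 pairs. In KO_TAC against KO_sham its log2 fold change was -0.37 (SE 0.21, adjusted p 0.191), and limma voom with sample weights gave -0.63 and called it (adjusted p 0.0108). Its lowest value, 14.1 CPM, was in PBS_sham 3. Ednra shares 91 exon bases with the antisense transcript 4933431K23Rik. Ednrb measured 22.6, 15.7, 17.7 and 19.3 CPM in FF_sham and 17.6, 34.4, 44.4 and 24.8 CPM in FF_TAC. It measured 20.5, 35.3, 22.3 and 22.4 CPM in KO_sham and 40.9, 27.8, 34.5 and 46.3 CPM in KO_TAC. Groups overlapped, with 1 high KO_sham library and a low and a high pair in FF_TAC. The log2 fold change of Ednrb was 0.69 (SE 0.25, adjusted p 0.390) in floxed and 0.58 (SE 0.25, adjusted p 0.0980) in knockout hearts, and without KO_sham 2 the latter became 0.77 (adjusted p 0.0443). The other 7 of 8 fits without 1 library did not call the knockout difference. Limma voom called it at 0.62 (adjusted p 0.0139). In the AAV9 cohort Ednrb ran from 21.7 to 41.6 CPM, with its highest value in PBS_sham 3.

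The remaining comparisons held no called member in the edgeR fit. These were KO_sham against FF_sham (0% of all genes called, 1 member at an unadjusted p under 0.05, 0 by DESeq2), the interaction of knockout and TAC (0.0449% of genes, 2 members, 1 by DESeq2), and PBS_TAC against PBS_sham (0.0318%, 3 members, 2 by DESeq2). They were also AAV_TAC against AAV_sham (0.00635%, 2 members, 1 by DESeq2), AAV_sham against PBS_sham (0.0127%, 1 member, 0 by DESeq2), AAV_TAC against PBS_TAC (0.0381%, 1 member, 0 by DESeq2) and the interaction of vector and TAC (0.00635%, 0 members, 0 by DESeq2). By limma voom these counts were 0 except for the interaction of knockout and TAC, with 2. In each of these comparisons edgeR called at most 0.0449% of all genes, so the members' counts of 0 are near the background. At an unadjusted p under 0.05, 799 of 15596 genes passed in KO_sham against FF_sham and 2041 in the interaction of knockout and TAC. Of 15745 genes, 2901 passed in PBS_TAC against PBS_sham, 1103 in AAV_TAC against AAV_sham and 3247 in AAV_sham against PBS_sham. There were 504 in AAV_TAC against PBS_TAC and 1086 in the interaction of vector and TAC. The shares of all genes called by DESeq2 and limma voom are not given here. The libraries of TAC and sham did not overlap for 2 members in the FF pair (Edn3 higher and Ece1 lower, beside 6.03% of all genes) and for 3 in the KO pair (beside 23.1%). They did not overlap for 2 members in the PBS pair (beside 14.7%) and for 0 in the vector pair (beside 10.7%). Such shares are not given for KO_TAC against FF_TAC, AAV_TAC against PBS_TAC, or KO_TAC against the rest of its cohort. The separations of Ace, Agtr1a and Edn1 stated for those contrasts thus have no background beside them.

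Several members differed between the libraries with few haemoglobin transcripts and the rest of the floxed cohort. Haemoglobin RNA comes from red blood cells left in the tissue. Edn1 ran from 10.5 to 24.4 CPM in the 7 haemoglobin-low libraries and from 4.80 to 7.50 CPM in the other 9. Ednrb ran from 27.8 to 46.3 CPM against 15.7 to 24.8 CPM, and Agtr1a from 18.4 to 36.3 CPM against 38.5 to 46.7 CPM. For these 3 of the 8 tested members no library overlapped across the split, beside 6% of all genes tested, and the low side of the split holds all 4 KO_TAC libraries. Ace, Edn3, Agt, Ednra and Ece1 overlapped across it. The same 7 libraries had the highest early response transcripts: 12 genes such as Fos, Jun and Egr1, which cells switch on within minutes of a stimulus, had a mean log2 CPM of 6.80 to 8.32 there and of 2.60 to 3.47 in the other 9. In the AAV9 cohort, where no library was low in haemoglobin, that mean ran from 4.22 to 5.82.

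**Figure D4:**
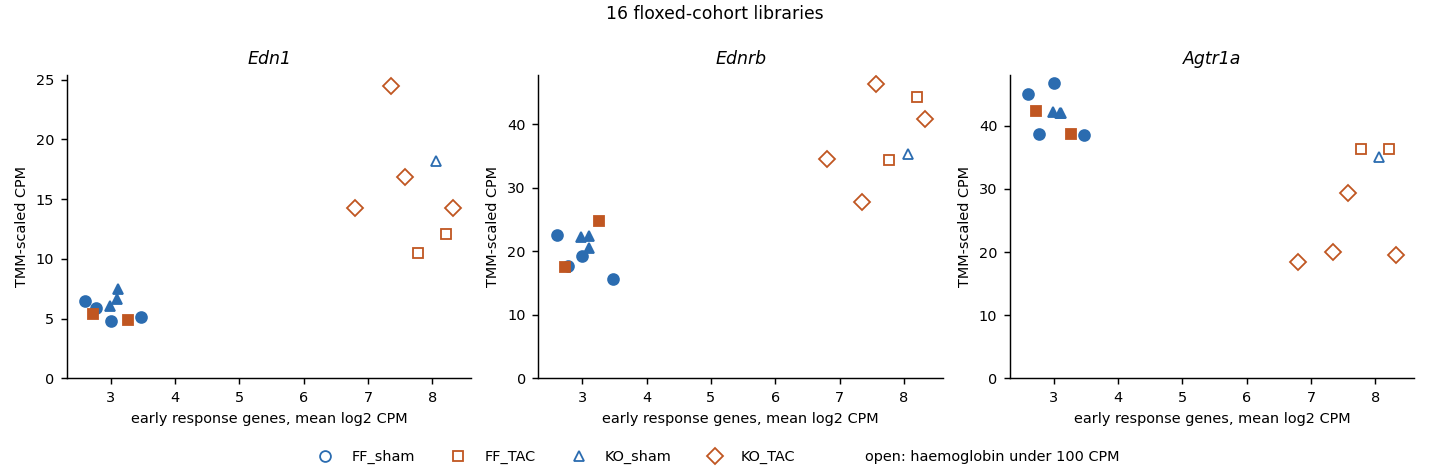
Level of Edn1, Ednrb and Agtr1a (TMM-scaled CPM) against the mean log2 CPM of 12 early response genes in the 16 libraries of the floxed cohort, with marker shapes for groups and open markers for libraries under 100 CPM of haemoglobin. The open markers form a separate cluster on the right in all 3 panels, above the filled ones for Edn1 and Ednrb and below them for Agtr1a.

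All 4 KO_TAC libraries, 2 of FF_TAC, 1 of KO_sham and 0 of FF_sham belonged to the haemoglobin-low set, so the knockout TAC group and the split cannot be fully told apart. Within the set, Agtr1a in the 4 KO_TAC libraries (18.4 to 29.3 CPM) was below that in KO_sham 2 (35.0) and in FF_TAC 2 and 3 (36.3 each). Ace in the 4 KO_TAC libraries (113 to 163 CPM) was above that in those 3 (73.3, 90.2 and 103). These 3 are the only haemoglobin-low libraries outside KO_TAC, and they are the same 3 whose Cpt1a level went against their label. The contrasts within the set and the fits that use the split thus rest on labels that the Cpt1a levels do not match. With a term for the split, KO_TAC against KO_sham remained called for Ace (0.94, SE 0.18, adjusted p 0.0261) and Agtr1a (-0.73, SE 0.16, adjusted p 0.0395). Edn3 was then not called, at 1.997 (SE 0.74, adjusted p 0.164). In the same fit Edn1 was at 0.06 (SE 0.21, adjusted p 0.900) and Ednrb at -0.00 (SE 0.21, adjusted p 0.999), against 0.86 and 0.58 without the term. KO_TAC against FF_TAC gave 0.60 for Ace (SE 0.16, adjusted p 0.0354), -0.71 for Agtr1a (SE 0.14, adjusted p 0.0112) and 0.56 for Edn1 (SE 0.19, adjusted p 0.0964). Fitted on the 7 libraries alone, with 4 KO_TAC against 1 KO_sham and 2 FF_TAC, no member was called. Ace was then at 0.96 against KO_sham and 0.56 against FF_TAC, and Agtr1a at -0.70 and -0.76.

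Other genes of the angiotensin pathway were read from a list of 25, of which 19 passed the filter. In KO_TAC against KO_sham 2 rose and 4 fell, 6 of 19 beside 25.8% of all genes called there, with a list median of 0.00 against 0.02 over all genes. DESeq2 called 6 of the 19 and limma voom 11. The shares of all genes called by DESeq2 and limma voom are not given for this list or the next ones. The bradykinin receptor Bdkrb2, whose ligand Ace degrades, rose by 2.05 (SE 0.44, adjusted p 0.00550), from 0.595 ± 0.209 CPM to 2.49 ± 0.294 CPM (SD, n = 4 each). Ctsd, a lysosomal protease, rose by 0.88 (SE 0.25, adjusted p 0.0193). It ran from 567 to 743 CPM in KO_sham and from 576 to 1654 CPM in KO_TAC, so the groups overlapped. Neprilysin (Mme), which degrades angiotensins, bradykinin and natriuretic peptides, fell by 2.33 (SE 0.54, adjusted p 0.00837), from 8.05 ± 2.11 CPM to 1.56 ± 1.53 CPM. Mas1, the receptor for angiotensin 1-7, fell by 1.74 (SE 0.46, adjusted p 0.0157) at a low level, from 1.504 ± 0.0703 CPM to 0.427 ± 0.377 CPM. The mineralocorticoid receptor Nr3c2, on which aldosterone acts, fell by 1.19 (SE 0.29, adjusted p 0.0113). The aminopeptidase Lnpep, named after its values were seen, also fell, from 100.2 ± 2.56 CPM to 83.7 ± 9.56 CPM.

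Between the TAC groups 3 genes of that list were higher in knockout hearts and 1 was lower, 4 of 19 beside 14.3% of all genes, with a list median of 0.11 against 0.04 over all genes. Bdkrb2 was higher by 1.60 (SE 0.43, adjusted p 0.0218) and the prorenin receptor Atp6ap2 by 0.47 (SE 0.13, adjusted p 0.0249). Mme was lower, at -2.44 (SE 0.54, adjusted p 0.00839). DESeq2 called 5 of the 19 there and limma voom 8. In the other 9 comparisons edgeR and DESeq2 called 0 genes of the list, with 0 to 7 genes at an unadjusted edgeR p under 0.05. The 7 were in the averaged TAC effect, where 2796 of 15745 genes passed that threshold. By limma voom the count in those 9 was 5 in the interaction of knockout and TAC, 3 in the averaged TAC effect, 1 in AAV_TAC against AAV_sham and 0 elsewhere. Renin itself (Ren1) was nearly absent, with its highest level, 2.27 CPM, in PBS_sham 3 and at most 0.227 CPM elsewhere.

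Of 9 further endothelin genes (Edn2, Ece2, the endoproteases Furin, Pcsk5, Pcsk6 and Pcsk7 and others), 4 passed the filter, and edgeR and DESeq2 called 0 of them in the 11 comparisons, with at most 1 at an unadjusted edgeR p under 0.05 in each. By limma voom, 2 were called in KO_TAC against KO_sham, 1 in KO_TAC against FF_TAC and 0 elsewhere. The list of receptor coupling genes, which carry signals from Gq and G12 receptors through phospholipase, protein kinase C and calcineurin, had 27 members, all tested. In KO_TAC against KO_sham 6 rose and 2 fell, 8 of 27 beside 25.8% of all genes, and the list median was -0.10 against 0.02 over all genes. The calcineurin-activated factor Nfatc1 rose by 1.56 (SE 0.37, adjusted p 0.00920) and the calcineurin regulator Rcan1 by 1.54 (SE 0.34, adjusted p 0.00717). Protein kinase C delta (Prkcd) rose by 1.10 (SE 0.22, adjusted p 0.00373). The other 3 that rose, named after their values were seen, were the receptor kinase Grk5 and the G protein subunits Gna13 and Gnaq. Nfatc3 fell by 0.61 (SE 0.15, adjusted p 0.0121) and the calcineurin subunit Ppp3cb by 0.41 (SE 0.12, adjusted p 0.0229). Between the TAC groups 5 of 27 were called, beside 14.3% of all genes. Grk5 (1.09, SE 0.16, adjusted p 0.000871) and Prkcd (0.93, SE 0.22, adjusted p 0.0105) were higher in knockout hearts. Nfatc3 (-0.49), Rgs5 (-0.49) and Gna12 (-0.40) were lower there, with adjusted p from 0.0296 to 0.0434. The haemoglobin split coincides with KO_TAC for these genes too, and its part was not tested for them.

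The genes whose levels followed each member most closely were found by Spearman's rho of log2 CPM, taken separately over the 16 floxed and 14 AAV9 libraries and ranked by the lower value, among 10323 genes averaging 5 CPM or more in each of the cohorts. These values describe libraries that share group, depth and the haemoglobin split, and they carry no test. Closest to Ace were the matrix proteins Fbln2 (rho 0.974 and 0.921) and Ltbp2 (0.932 and 0.916). Fbln2 had 278 ± 63.2 CPM in KO_TAC and 114 ± 21.4 CPM in KO_sham. Closest to Edn3 were Xirp2, an actin-binding protein of cardiac intercalated discs (0.915 and 0.987), and the kinesin Kif5b (0.921 and 0.903). Xirp2 had 2063 ± 981 CPM in KO_TAC and 463 ± 32.3 CPM in KO_sham.

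Agtr1a was followed by Lrrc15 (0.894 and 0.908) and AC132253.9 (0.894 and 0.925), and Lrrc15 had 5.28 ± 2.54 CPM in KO_TAC against 25.5 ± 8.27 CPM in KO_sham. Edn1 was followed by Tm4sf1 (0.832 and 0.780) and Wsb1 (0.844 and 0.763). Ednrb was followed by Rela, a subunit of NF-kappaB (0.791 and 0.811), and by Il17ra (0.779 and 0.886). Ece1 was followed by the natriuretic peptide receptor Npr1 (0.888 and 0.921) and by Megf6 (0.876 and 0.868). The closest genes were less close for Ednra, with 2610035D17Rik (0.671 and 0.802) and Cap2 (0.665 and 0.732), and for Agt, with Lrp10 (0.659 and 0.648) and Copz1 (0.626 and 0.723).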

How the data were processed

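Poly(A) RNA of 30 mouse hearts was sequenced from stranded libraries. The submitters' processing notes name HISAT2 2.1.0, featureCounts, Subread 1.5.1 and build GRCm38. The authors deposited raw counts, whole numbers that sum to a different total in each library, and every column was mapped to a sample. Identifiers were matched to GENCODE M21 symbols (55141 of 55487), and those without one held 0.0192% of counts. Groups came from the genotype and treatment labels.

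Each cohort was fitted separately, with 1 mean per group, by edgeR 4.0.16 (robust quasi-likelihood F test, TMM, filterByExpr, R 4.3.3), which tested 15596 genes in the floxed and 15745 in the AAV9 cohort. There were 11 comparisons. The threshold for a call was 0.05 after Benjamini-Hochberg adjustment over all genes tested. CPM values were TMM-scaled within each cohort, so levels set across cohorts rest on separate scalings. Library totals of 14839758 to 22070373 counts set the precision. A chi-square of counts over its degrees of freedom was 6.29 to 234 in the 42 pairs of same-group libraries, so none were duplicates. The fits were tested on simulated counts with known changes. That simulation held no haemoglobin split and no library at odds with its label, so it does not cover those features of the data.

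Named were all members, up to 3 called genes with the largest rise and 3 with the largest fall per pathway list, others where a count was small, and the 2 genes most like each member. Members, lists and the haemoglobin limit of 100 CPM were chosen with earlier results of these data known. Alternatives were DESeq2 1.42.0, limma 3.58.1 (voom), RLE factors, no low-count filter, a replicate block, all libraries in 1 fit, terms for haemoglobin or Myl7, and leaving out each library. The Myl7 term in the floxed cohort, the naming of PBS_sham 3 and the fit without the 3 libraries whose Cpt1a went against their label were added after seeing the data. Pathways were described by counts and medians only, and 1 gene counted among them is not reported here by name.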

Additional observations from a re-analysis of the deposited data

Results flagged for a closer look

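In 6 of the 49 sets examined (1 gene in 1 group of 4 libraries), the highest or lowest library lay far from the other 3 relative to the range of the set, where chance alone gives about 1 in 20. KO_sham 2 accounted for 3 of them: Agtr1a was 35.0 CPM there and at least 41.9 in the other KO_sham libraries, Edn1 was 18.2 CPM against at most 7.50, and Ednrb was 35.3 CPM against at most 22.4. KO_sham 2 is the KO_sham library with few haemoglobin transcripts. Agtr1a was 29.3 CPM in KO_TAC 4 and at most 19.9 in the other KO_TAC libraries. Edn3 was 0.554 CPM in FF_sham 4 and at least 1.96 in the other FF_sham libraries. Ece1 was 150 CPM in KO_TAC 1 and at most 77.2 in the other KO_TAC libraries.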

How the results depend on the processing

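The calls of Ace and Agtr1a in both KO_TAC comparisons, and of Edn3 in KO_TAC against KO_sham, kept their direction in every alternative run and were called in all 8 fits without 1 library. They were lost in the fit of haemoglobin-low libraries alone (0 members in KO_TAC against KO_sham and 0 against FF_TAC), which has 1 KO_sham and 2 FF_TAC libraries and could hardly give a call. There Ace was at 0.96 and 0.56, Agtr1a at -0.70 and -0.76 and Edn3 at 2.98 in the first. Edn3 was also lost with the haemoglobin term. Members called in KO_TAC against KO_sham numbered 6 by voom and 3 to 5 without 1 library. The shares of all genes called in these alternative fits are not given, so the counts of members in this section have no background beside them. DESeq2 called 1 member in FF_TAC against FF_sham, 1 in the interaction of knockout and TAC (2 by voom), 2 in PBS_TAC against PBS_sham and 1 in AAV_TAC against AAV_sham. Without 1 library, the counts ran from 0 to 1 in FF_TAC against FF_sham, in the interaction of knockout and TAC and in PBS_TAC against PBS_sham, and from 0 to 2 in AAV_sham against PBS_sham. Without the 3 libraries whose Cpt1a went against their label, 5 members were called in KO_TAC against KO_sham, 4 in KO_TAC against FF_TAC and 2 in the interaction of knockout and TAC. The TAC effect averaged over PBS and AAV went from 2 members to 1 without the low-count filter, 0 with the Myl7 covariate and 0 to 2 without 1 library. It held 0 without PBS_sham 2, PBS_TAC 1 or 3, AAV_sham 1, 3 or 4, or AAV_TAC 1, and 1 without AAV_TAC 2 or 4. Edn1 in KO_TAC against FF_TAC was called by DESeq2, voom, RLE scaling and the fit of all 30 libraries, and without FF_TAC 2, FF_TAC 3 or KO_TAC 1. The cause of these changes was not tested.

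With the replicate number as a block, that average held 0 called members (Ace 0.66 and Edn3 2.70, each with an adjusted p of 0.0544), while Edn1 was called at 0.94 in KO_TAC against KO_sham and at 1.12 in KO_TAC against FF_TAC. The block moved no other call. The numbers share no stated source: deviations of same-numbered libraries correlated over 0.1 in 9 of 24 pairs in the floxed cohort (-0.373 to 0.454) and 7 of 19 in the AAV9 cohort (-0.407 to 0.396), and 2 of 16 and 4 of 14 libraries correlated best with their own number.

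Signs that turned belonged to values that were not called. In FF_TAC against FF_sham, Agt turned to 0.00097 with voom and 0.015 with the haemoglobin term (-0.46 to 0.099 without 1 library), and Edn1 to -0.19 with that term and -0.11 in haemoglobin-high libraries alone. In KO_TAC against KO_sham, Ednrb turned to -0.00041 with the haemoglobin term, Edn1 to -0.070 in haemoglobin-low libraries alone, and Ece1 to 0.0078 with Myl7 (-0.35 to 0.086 without 1 library). In KO_TAC against FF_TAC, voom turned Ednra to -0.15 and Ece1 to -0.12, Ednrb turned to -0.034 with the haemoglobin term and -0.0995 in haemoglobin-low libraries alone, and Edn3 to -0.25 there. Without the 3 libraries named for Cpt1a, Edn1 turned to -0.12 in FF_TAC against FF_sham, Ece1 to 0.084 in KO_TAC against KO_sham and Ednra to -0.18 in KO_TAC against FF_TAC. In KO_TAC against FF_TAC without 1 library, Ece1 ran from -0.15 to 0.26, Edn3 from -0.038 to 0.64 and Ednra from -0.034 to 0.34. In the TAC average, Ednra turned to -0.090 with voom, and Edn1 to 0.018 and Ece1 to 0.039 with Myl7; without 1 library Agtr1a ran from -0.066 to 0.29 and Ednra from -0.078 to 0.17. Depth limits Agtr2.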
